A study of Mus musculus with 24 samples.

Results

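The genes described here are 9 genes of the choroid plexus, namely Ttr, Folr1, Kl, Clic6, Enpp2, Otx2, Slc4a5, Prlr and Aqp1, as they appeared in RNA sequencing libraries of mouse brain microvessels. They were chosen by name, as the rows of the normalized count table that carry these 9 symbols, out of 17270 genes in the table. All 9 were found, and all 9 passed the limit of a mean above 5 normalized counts that left 15982 genes for testing. The libraries came from male C57BL/6J mice of 10 to 12 weeks. The mice underwent tMCAO, in which a filament closed the right middle cerebral artery for 60 min before reperfusion, or sham surgery, in which the filament was withdrawn at once. Microvessels of the ipsilateral (right, operated) and of the contralateral hemisphere were isolated 24 h or 7 days later. This gave 8 groups of 3 libraries, here called stroke or sham, ipsilateral or contralateral, 24 h or 7 days. Each library was made from pooled hemispheres of 3 mice, so that its value is already a mean over mice. Cerebellum, brain stem and olfactory lobes had been removed and the meninges peeled off before the vessels were collected on a mesh, and libraries regarded as outliers had been taken out by the authors. Whether the choroid plexus was removed from the ventricles is not stated. The p-values below measure the spread between libraries of pooled hemispheres, not between single mice.

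The choroid plexus is a tuft of fenestrated capillaries and stroma that hangs into each brain ventricle and is covered by a single layer of epithelium. This epithelium secretes the cerebrospinal fluid and many of the proteins dissolved in it, and it is continuous with the ependyma that lines the ventricle walls. Parenchymal brain capillaries, by contrast, have a tight endothelium surrounded by pericytes and astrocyte endfeet, so that transcripts of plexus epithelium in a microvessel preparation come with tissue other than these vessels. In libraries made from pooled tissue, fewer cells of a type and less RNA per cell cannot be told apart.

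As a whole, the libraries held 15924780 to 18787932 normalized counts, and the spacing of their low values gave an estimated 13691467 to 20033951 reads each. Libraries of 1 group correlated at 0.967 to 0.988, and no library was a copy of another. Cldn5, which builds the tight junctions of brain endothelium, lay between 42176 and 74690 normalized counts in every library, so that the defining marker of the labelled tissue was abundant throughout. The 10 brain endothelium genes of the marker list summed to between 306483 and 491808.

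The 9 genes differed widely in level. Per kilobase of exon, Ttr had a median of 11597 normalized counts over the 24 libraries and Enpp2 one of 634. Aqp1 followed with 48.5, Clic6 with 47.0, Kl with 25.9 and Folr1 with 20.03. Slc4a5, Otx2 and Prlr were lowest, with 9.22, 6.28 and 4.82 per kilobase. Ttr alone made up between 0.00296% and 0.443% of a library's normalized counts, with a median of 0.0822%. No interval is attached to these shares because the deposited values are not raw reads.

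The gene with the highest level was Ttr (ENSMUSG00000061808, chromosome 18), which encodes transthyretin, the carrier of thyroid hormone and retinol that plexus epithelium releases into the cerebrospinal fluid. In sham libraries at 24 h, the contralateral values were 5040, 34678 and 9436 normalized counts for replicates 1, 2 and 3. The ipsilateral values of the same group and time were 4839, 70672 and 38241. Within each of these hemispheres, the highest library thus held several times the lowest, without any difference in label. In stroke libraries at 24 h, Ttr stood at 25129, 6531 and 42040 contralaterally. On the ipsilateral side at 24 h it stood at 16687, 7395 and 19655, inside the range of both sham hemispheres. At 7 days, the sham values were 41652, 2412 and 12433 contralaterally. The sham ipsilateral libraries at 7 days, with 27838, 15074 and 26956, were the most even of the 8 groups. The stroke contralateral libraries at 7 days had 17909, 2343 and 9270. The stroke ipsilateral libraries at 7 days held 556, 2804 and 2056, and all 3 lay below every sham ipsilateral library. Replicate 1 of this group was the lowest of all 24, and the highest library, sham ipsilateral 24 h replicate 2, exceeded it 127-fold.

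Ordered by the mean of their log2 values, the groups ran from 10.53 ± 1.24 (SD, n = 3) in stroke ipsilateral 7 days, through 12.83 ± 1.5 in stroke contralateral 7 days, to 13.39 ± 2.06 in sham contralateral 7 days. Next came sham contralateral 24 h with 13.53 ± 1.42, stroke ipsilateral 24 h with 13.71 ± 0.76 and stroke contralateral 24 h with 14.22 ± 1.39. Sham ipsilateral 7 days and sham ipsilateral 24 h closed the order with 14.45 ± 0.50 and 14.52 ± 2.03. Each step between neighbours in this order, except the lowest, was smaller than 1 SD of either group, and the lowest step overlapped as well, since stroke contralateral replicate 2 at 7 days lay among the stroke ipsilateral values.

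**Figure D1:**
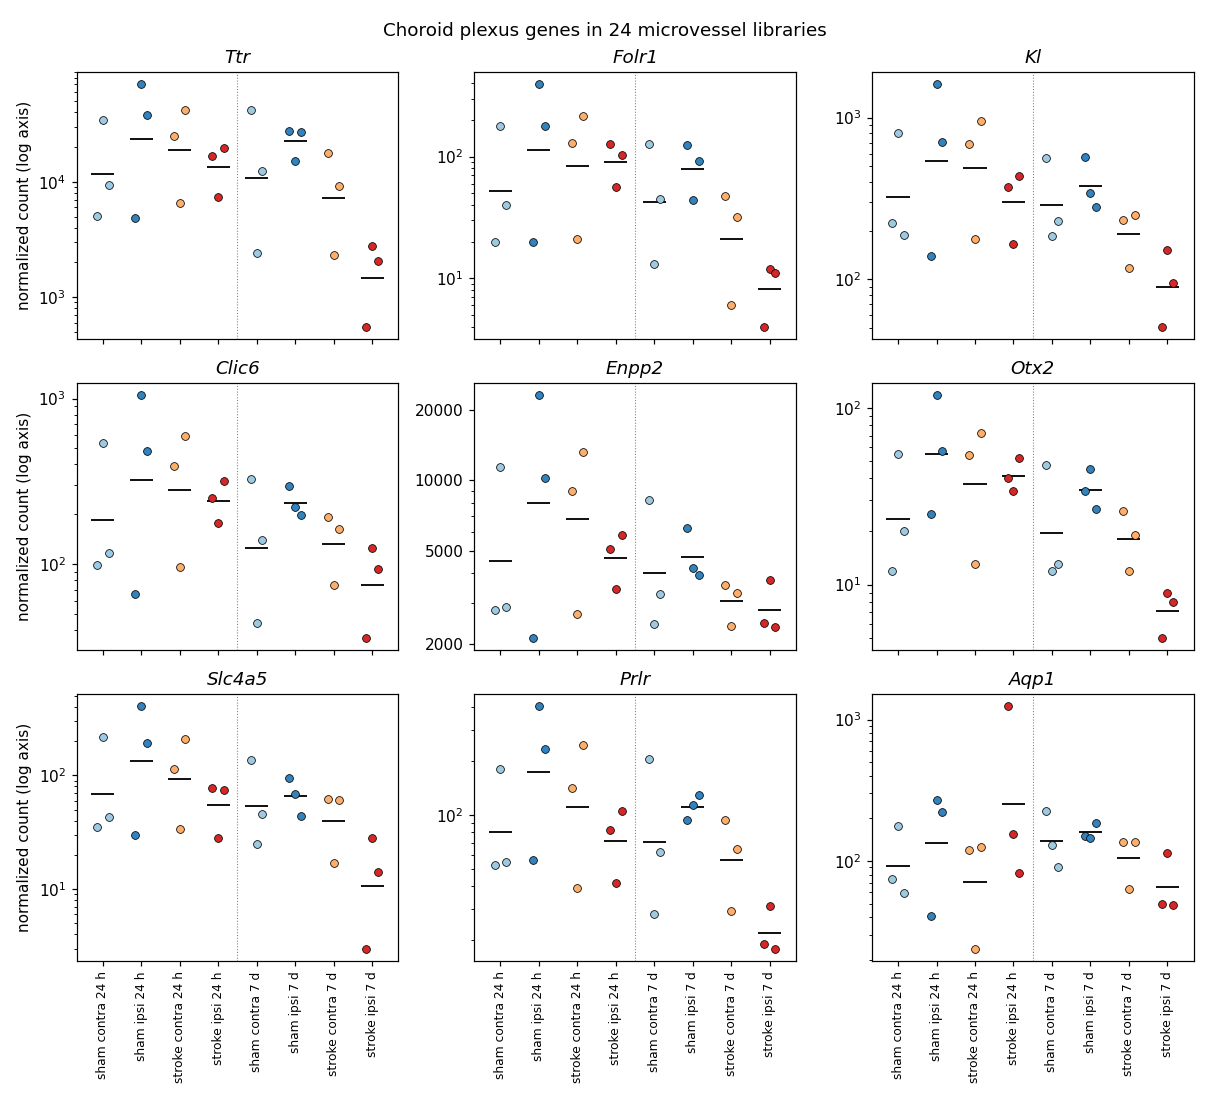
Normalized counts of the 9 choroid plexus genes (log axis, 1 panel per gene) in the 24 libraries. Points are libraries, grouped by surgery, hemisphere and time, and bars are geometric means of 3 libraries. In Ttr the 3 stroke ipsilateral libraries at 7 days sit between 556 and 2804, below the sham ipsilateral libraries at 15074 to 27838, and Aqp1 has a single library at 1245.

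Of the membrane proteins, Folr1 (ENSMUSG00000001827, chr7:101858331-101870788) encodes the folate receptor by which plexus epithelium moves folate towards the cerebrospinal fluid. Its sham values at 24 h were 20, 178 and 40 contralaterally and 20, 395 and 179 ipsilaterally. In stroke libraries at 24 h it had 130, 21 and 215 contralaterally and 127, 56 and 103 ipsilaterally. At 7 days the sham libraries gave 127, 13 and 45 contralaterally and 125, 44 and 92 ipsilaterally, and the stroke contralateral libraries gave 47, 6 and 32. The stroke ipsilateral libraries at 7 days had 4, 12 and 11, below every sham ipsilateral value but not below every contralateral one. The highest and the lowest library of Folr1 over all 24 were those of Ttr.

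Prlr (ENSMUSG00000005268, chr15:10177655-10349180) encodes the prolactin receptor. At 24 h its sham values were 53, 180 and 55 contralaterally and 56, 406 and 235 ipsilaterally, against 142, 39 and 247 and 83, 42 and 106 in the stroke libraries. At 7 days it had 205, 28 and 62 in sham contralateral, 94, 114 and 129 in sham ipsilateral and 94, 29 and 65 in stroke contralateral libraries. The stroke ipsilateral libraries at 7 days gave 19, 31 and 18, again below all 3 of their sham counterparts.

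Kl (ENSMUSG00000058488, chr5:150952607-150993817) encodes klotho, the co-receptor of the hormone FGF23, and ranged from 51 to 1615 normalized counts. Its sham ipsilateral values at 7 days were 568, 341 and 282, and the stroke ipsilateral ones were 51, 151 and 95. Slc4a5 (ENSMUSG00000068323, chr6:83219828-83304945), a sodium bicarbonate cotransporter of the plexus epithelium, ranged from 3 to 406. Here the same groups had 95, 68 and 44 against 3, 28 and 14. Clic6 (ENSMUSG00000022949, chr16:92498134-92541243), of the chloride intracellular channel family, ranged from 36 to 1050. Its values in these groups were 297, 222 and 197 against 36, 125 and 93, so that in each of the 3 genes the groups did not overlap.

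Otx2 (ENSMUSG00000021848, chr14:48657679-48667513) encodes the homeobox transcription factor that specifies and maintains the plexus epithelium. At 24 h it had 12, 55 and 20 in sham contralateral, 25, 119 and 57 in sham ipsilateral, 54, 13 and 72 in stroke contralateral and 40, 34 and 52 in stroke ipsilateral libraries. At 7 days the sham values were 48, 12 and 13 contralaterally and 34, 45 and 27 ipsilaterally. The stroke libraries at 7 days gave 26, 12 and 19 contralaterally and 5, 9 and 8 ipsilaterally. Otx2 was the only one of the 9 genes whose stroke ipsilateral libraries at 7 days lay below all 3 stroke contralateral ones.

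Since the genes moved together across libraries, promoters were read for those that have an entry in the RefSeq promoter table (GRCm38.p6, windows of 300 bases from 250 before to 50 after a transcription start). This matched 5 of the 9 genes, namely Kl, Aqp1, Slc4a5, Otx2 and Prlr, with 10 windows in all. The letters TAATCC on either strand, the core that OTX proteins bind, were present in 1 of the 10 windows and in 7.06% of the 32851 windows of the table. The 1 window belonged to Otx2 itself (chr14:48665060-48665359, minus strand), with the motif at position -211 from the start and shown in capitals. It is printed with 1 window each of Kl (chr5:150952357-150952656, plus strand) and Slc4a5 (chr6:83237125-83237424, plus strand), which lack these letters, so that the 3 can be compared.
Otx2: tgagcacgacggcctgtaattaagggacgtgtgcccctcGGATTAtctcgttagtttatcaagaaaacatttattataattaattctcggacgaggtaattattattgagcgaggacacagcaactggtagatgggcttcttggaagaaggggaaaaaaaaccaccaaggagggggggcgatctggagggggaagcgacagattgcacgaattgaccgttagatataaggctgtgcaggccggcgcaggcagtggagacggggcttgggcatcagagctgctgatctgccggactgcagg
Kl: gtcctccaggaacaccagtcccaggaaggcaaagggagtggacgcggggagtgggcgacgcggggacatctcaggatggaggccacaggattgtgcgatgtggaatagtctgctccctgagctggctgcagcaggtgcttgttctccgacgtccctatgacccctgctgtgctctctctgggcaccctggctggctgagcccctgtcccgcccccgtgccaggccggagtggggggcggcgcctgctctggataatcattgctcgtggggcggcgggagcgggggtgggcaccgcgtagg
Slc4a5: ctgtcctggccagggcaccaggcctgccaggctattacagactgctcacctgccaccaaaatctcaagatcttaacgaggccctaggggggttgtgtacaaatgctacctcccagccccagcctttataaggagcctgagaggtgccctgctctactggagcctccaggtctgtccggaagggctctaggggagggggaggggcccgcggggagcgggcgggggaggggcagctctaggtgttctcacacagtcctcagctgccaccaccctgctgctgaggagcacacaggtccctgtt
GC content was 51.0% in this Otx2 window, 67.3% in that of Kl and 62.7% in that of Slc4a5, beside a median of 52.7% over all windows. TATAAA was present, on either strand, in 13.6% of all windows and in those printed only in the Slc4a5 window, and no window printed here held ATTGG, which 37.4% of all windows did. A match of letters is a description and not evidence that a factor was bound.

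Enpp2 (ENSMUSG00000022425, chr15:54838898-54920146) encodes autotaxin, a secreted lysophospholipase D that is also made by oligodendrocytes. It varied least in proportion, from 2129 to 23059 normalized counts or 10.8-fold. Its lowest and its highest value came from replicates 1 and 2 of the same group, sham ipsilateral 24 h. At 7 days the sham ipsilateral libraries had 6263, 4215 and 3930, and the stroke ipsilateral ones 2469, 3760 and 2353, so that these groups stood only 170 counts apart at their nearest values. The 10 oligodendrocyte genes of the marker list summed to 31234 to 76018 in the former and to 53979 to 71244 in the latter. Mbp alone gave 25138 to 64223 and 46486 to 60887 of these sums, so that they mainly describe this gene. The part of oligodendrocytes in the Enpp2 values was not tested.

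Aqp1 (ENSMUSG00000004655, chr6:55336432-55348555) encodes the water channel of the apical plexus membrane, which outside the brain is also found in capillary endothelium and red blood cells. It ranged from 24 to 1245. The highest value was that of stroke ipsilateral replicate 1 at 24 h, whose group otherwise had 155 and 82, and the second highest of the 24 was 270. In that library the other 8 genes stayed within the range of the other groups. Foxj1, which directs formation of motile cilia in the ependyma, was also highest there with 214, against 10 to 103 elsewhere, and Ccdc153 and Tmem212 reached 56 and 51, against highest values of 36 and 26 elsewhere. Tekt1, Ak7, Rsph1, Cfap126, Pifo and Dynlrb2 were highest there too, with 52, 78, 87, 73, 35 and 31. Their highest values elsewhere were 29, 37, 48, 48, 20 and 30. Rarres2 and Enkur were not highest in that library, with 1117 and 25. The 11 ependyma genes found summed to 1819 in it, and to 879 to 1803 in the others, and Rarres2 alone gave 1117 of the 1819. The part of ependyma in the Aqp1 value was not tested.

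Taken over all groups, the 9 genes each scattered more between libraries of 1 group than most genes tested. On the log2 scale, their SD within groups was between 0.85 and 1.45 with a median of 1.13, whereas the median over all genes tested was 0.24. Ttr, with 1.45, and Folr1, with 1.44, exceeded 99.7% and 99.6% of the genes tested. Otx2, the lowest at 0.85, still exceeded 96.7%. By group, the median SD of the 9 genes was lowest in sham ipsilateral 7 days, at 0.36, and highest in sham ipsilateral 24 h, at 1.80, while that of all genes stayed between 0.16 and 0.25. In every group, the median of the 9 was above that of all genes. A single gene could lie lower, as Aqp1 did in sham ipsilateral 7 days, with 0.196 against 0.211 for the median of all genes. The genes tested were not matched to the 9 for level.

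Over the 24 libraries, the other 8 genes rose and fell with Ttr. Pearson's r with log2 Ttr was 0.964 for Folr1 (Spearman's rho 0.958), 0.950 for Prlr (rho 0.965) and 0.948 for Slc4a5 (rho 0.952). It was 0.930 for Kl (rho 0.950), 0.923 for Clic6 (rho 0.946), 0.907 for Otx2 (rho 0.912) and 0.823 for Enpp2 (rho 0.918). In each of these 7, the 2-sided permutation p was 1e-05 for both measures, the smallest that 100000 permutations can give. Aqp1 was the weakest with r 0.563 (permutation p = 0.0045) and rho 0.706 (permutation p = 0.00022). These 8 relations were computed on genes chosen as plexus genes with results of these data known, and libraries of both hemispheres may share mice, so that the 24 points are not fully independent. Without the libraries farthest from the median of Ttr, stroke ipsilateral 7 days replicates 1 and 3, r ranged from 0.490 (Aqp1) to 0.962 (Folr1). With group means subtracted, r was 0.628 for Aqp1 and 0.870 to 0.974 for the other 7, so that the relation also held among equally labelled libraries. Without the single high library of Aqp1, its r was 0.675. Over all 36 pairs of the 9 genes, r lay between 0.549 and 0.976 with a median of 0.920, and over the 28 pairs without Aqp1 it was at least 0.823.

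Although the genes moved together, they did so by unequal amounts. The slope of log2 level on log2 Ttr was 0.94 ± 0.05 (SE, n = 24) for Folr1, close to proportional, and 0.79 ± 0.06 for Slc4a5. Prlr, Clic6 and Kl had 0.65 ± 0.05, 0.64 ± 0.06 and 0.63 ± 0.05, and Otx2 had 0.58 ± 0.06. Enpp2 and Aqp1 were flattest with 0.44 ± 0.07 and 0.36 ± 0.11. Against the sum of Folr1, Kl, Clic6, Otx2, Slc4a5 and Prlr, Ttr stood at 11.4 to 20.7 in the 12 libraries of 24 h. At 7 days the same ratio ran from 4.71 to 35.0, with 4.71, 7.88 and 8.60 in the stroke ipsilateral libraries, and 7.86 and 9.15 in replicate 2 of the sham and of the stroke contralateral group. Enpp2 against the same sum was 5.35 to 7.03 at 24 h, and 20.9, 10.6 and 9.85 in the stroke ipsilateral libraries of 7 days. The libraries with the least Ttr thus held the least Ttr and the most Enpp2 in proportion to the other genes.

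**Figure D2:**
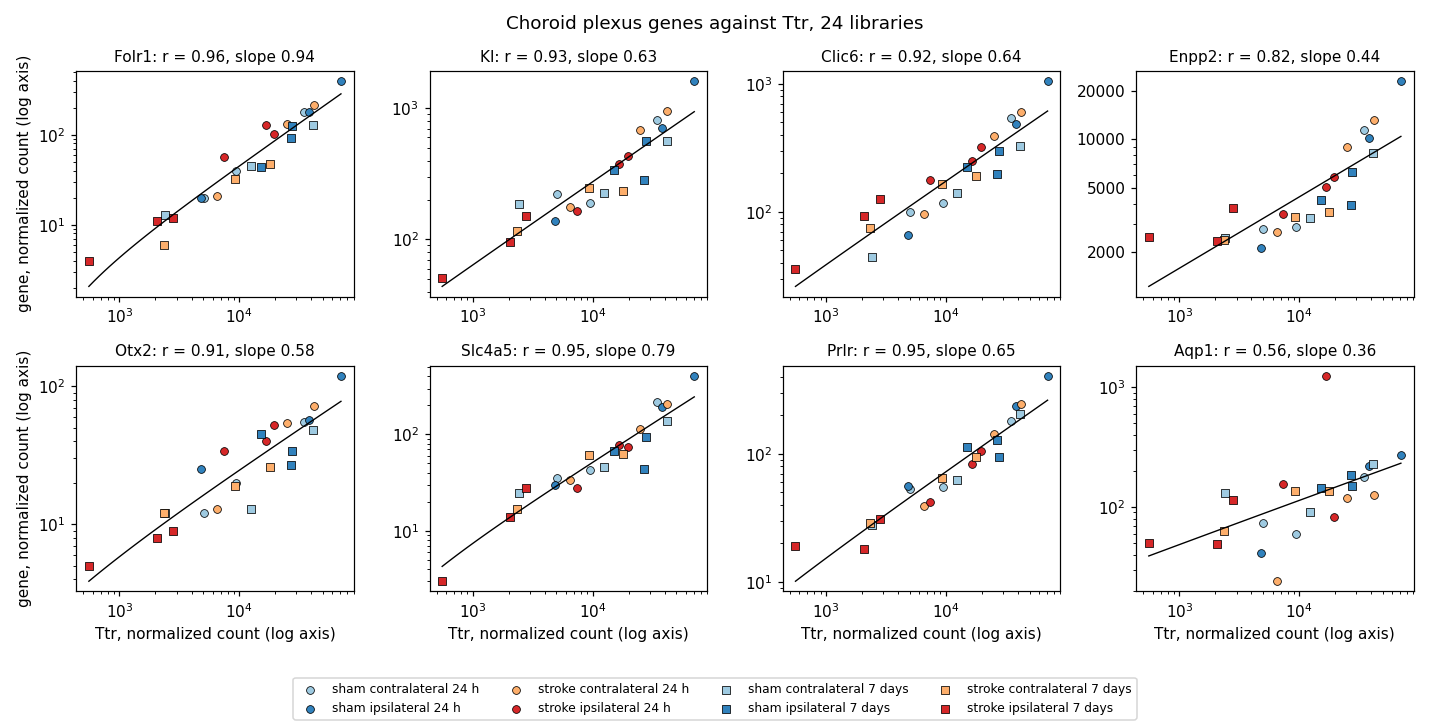
Normalized counts of 8 choroid plexus genes against Ttr (both axes log), 24 libraries, circles for 24 h and squares for 7 days, with the least squares line on the log2 scale. Folr1 follows Ttr most closely (r 0.964, slope 0.94) and Enpp2 flattens at its lower end, while 1 stroke ipsilateral library of 24 h stands far above the Aqp1 line.

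Which other genes followed this pattern was asked by ranking the 15973 remaining tested genes by their correlation with the mean z score of the 9 genes over the 24 libraries. The 10 most alike were 1500015O10Rik (r 0.970), Col8a2 (0.962), Mfrp (0.961), Krt18 (0.949), Car12 (0.949), Atp2b3 (0.947), Cldn2 (0.943), Kcne2 (0.939), Steap1 (0.938) and Frem1 (0.932). Mfrp, Krt18, Car12, Cldn2, Kcne2 and Steap1 are on the list of 30 other plexus epithelium genes used here. Among them, Kcne2 encodes a potassium channel subunit, Car12 a carbonic anhydrase and Cldn2 a claudin of the leaky plexus junctions. Kcne2 ran from 5 normalized counts in stroke ipsilateral 7 days replicate 1 to 257 in sham ipsilateral 24 h replicate 2, the same libraries that were lowest and highest for Ttr. With group means subtracted, 7 of these 10 remained among the 10 most alike.

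The label of the 9 genes was checked against these lists. Of the 30 other plexus epithelium genes, 15 were among the 100 most alike, and their median r was 0.724. The median r was 0.637 for 11 ependyma genes, 0.628 for 11 meningeal and stromal fibroblast genes and 0.565 for 7 pericyte genes. It was 0.348 for 10 neuron genes, 0.217 for 8 astrocyte genes, 0.212 for 10 oligodendrocyte genes and 0.202 for 6 smooth muscle genes. The 19 tested genes of cerebrospinal fluid ion and water transport had a median of 0.151, with Slc4a10, a bicarbonate transporter, at 0.915. Erythroid genes stood at 0.087, neutrophil and monocyte genes at -0.10, fenestrated endothelium genes at -0.13 and brain endothelium genes at -0.31, and all other genes tested at -0.0011. After group means were subtracted, the other plexus epithelium genes were still highest and the brain endothelium genes lowest, but the order between them changed. Neuron and astrocyte genes then stood at -0.061 and -0.039 and oligodendrocyte genes at 0.112. Erythroid genes rose to 0.323, and neutrophil and monocyte genes to 0.173. The fenestrated endothelium list included Kdr and Emcn, with at least 5999 and 4487 normalized counts in every library. These values are descriptions, since the lists were drawn up with earlier results known. The tissues of the ependyma, the meninges and the plexus stroma lie next to the epithelium, and their parts in the pattern were not tested.

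**Figure D3:**
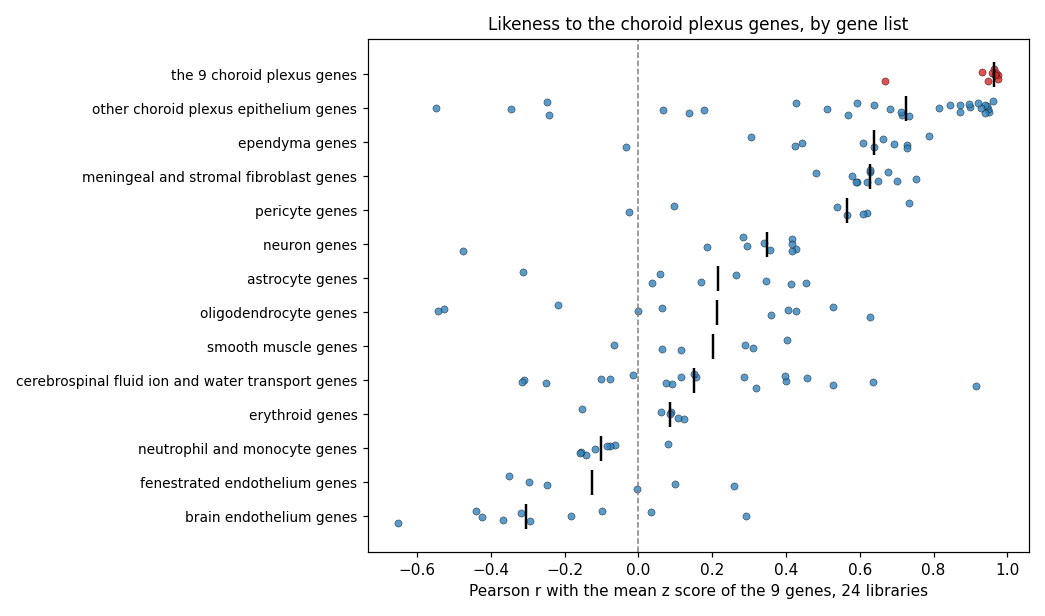
Pearson r of each gene with the mean z score of the 9 choroid plexus genes over 24 libraries, by gene list. Points are genes, black ticks are list medians and the dashed line is the median of all other genes tested (-0.0011). The 9 genes enter their own score, and the list medians fall from 0.724 for other plexus epithelium genes to -0.31 for brain endothelium genes.

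Whether stroke altered the plexus transcripts on the operated side was asked first at 24 h, against sham ipsilateral libraries. None of the 9 genes passed the test of limma (adjusted p under 0.05 and a change of more than 1.5-fold), whereas 18.3% of all genes tested did. None had an unadjusted p under 0.05 either, and the libraries of both groups overlapped in every one of the 9. The log2 fold changes ran from -1.27 for Prlr and Slc4a5 to 0.89 for Aqp1 with a median of -0.77, beside -0.024 over all genes. For Ttr it was -0.81 with an SE of 1.06 and a 95% interval from -3.03 to 1.41. The interval spans a fall and a rise, and a difference of several fold was not detectable with libraries that scatter this much. The Aqp1 value rested on 1 library and was -0.26 without it. The median of the 9 was 0.0013 without sham ipsilateral replicate 2, where Folr1 stood at 0.57 and Clic6 at 0.43, and -1.72 without sham ipsilateral replicate 1.

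At 7 days, all 9 genes were lower in stroke than in sham ipsilateral libraries, and in all 9 the libraries did not overlap, a separation in this direction that 16.6% of all genes showed. An unadjusted p under 0.05 was seen in 6 of the 9. By limma with Benjamini-Hochberg adjustment over all genes, 4 of the 9 were called, and all 4 fell, beside 13.2% of all genes called and 9.95% called lower. Ttr fell by 3.93 on the log2 scale (SE 1.06, adjusted p = 0.0142). Folr1 fell by 3.13 (SE 1.06, adjusted p = 0.0469), Prlr fell by 2.29 (SE 0.76, adjusted p = 0.0418) and Otx2 fell by 2.13 (SE 0.64, adjusted p = 0.0257). The other 5 did not pass, with -2.47 for Slc4a5 (adjusted p = 0.0792), -2.06 for Kl (adjusted p = 0.0715) and -1.64 for Clic6 (adjusted p = 0.229). Aqp1 had -1.27 (adjusted p = 0.337) and Enpp2 -0.75 (adjusted p = 0.528). The median of the 9 was -2.13, against 0.025 over all genes. Because the 9 genes moved together, they count as far fewer than 9 separate observations.

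These calls hung on single libraries. Without stroke ipsilateral replicate 1 at 7 days, none of the 9 was called, the median of the 9 was -1.68 and Ttr stood at -3.22 (adjusted p = 0.0871, with a range of 0.0175 to 0.0871 over the libraries left out). Without sham ipsilateral replicate 1 or 2, or without stroke ipsilateral replicate 3, 1 gene was called, and without sham ipsilateral replicate 3, 2 were. With only the compared groups in the fit, 6 were called. The direction was negative for each of the 9 genes in each of these fits.

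The counts of the lists that follow stand beside those of all 15982 genes tested in stroke against sham ipsilateral libraries. Of these, 1591 (9.95%) were called lower and 523 higher at 7 days, and 1316 lower and 1603 higher at 24 h. Of the 30 other plexus epithelium genes, 11 were called lower and 1 higher at 7 days, with a median of -1.38, and 5 lower and 0 higher at 24 h, with a median of -0.49. The lowest at 7 days were Sostdc1, a secreted inhibitor of BMP and Wnt signalling, at -3.65 (adjusted p = 0.0222), and the potassium channel gene Kcnj13 at -3.23 (adjusted p = 0.0114). The exception was Ace, which encodes angiotensin-converting enzyme of plexus and of endothelium, at 0.90 (adjusted p = 0.000152). Ace stood at 7679 to 7886 normalized counts in sham and at 11616 to 19581 in stroke ipsilateral libraries at 7 days. The summed level of the list, Ace included, was 20253 to 23841 in sham and 20762 to 31450 in stroke ipsilateral libraries. At 24 h, Slc13a4 and Slc2a12, of sulfate and glucose transport, were lowest at -1.50 and -1.22 (adjusted p = 0.0102 and 0.00944).

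Of the 19 genes of cerebrospinal fluid ion and water transport, 3 were lower and 0 higher at 7 days. Slc4a10 had the lowest value, -2.31 (adjusted p = 0.0240), followed by the sodium pump subunit gene Atp1b1 at -1.37 (adjusted p = 0.000994). At 24 h 4 were lower and 1 higher, with the astrocytic water channel gene Aqp4 at -1.44 and Atp1b1 at -1.01 (adjusted p = 0.0313 and 0.0073).

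Genes of neighbouring tissues were compared at 7 days too. None of the 11 ependyma genes was called by limma, 2 having an unadjusted p under 0.05, and all 11 values were negative, with a median of -1.06 and sums of 879 to 1315 against 1194 to 1543. Of the 11 meningeal and stromal fibroblast genes 6 were called lower and 0 higher, with a median of -1.05 and sums of 32158 to 37962 in stroke against 65190 to 99107 in sham. Aldh1a2, a retinoic acid synthesizing enzyme, and the GABA transporter gene Slc6a13 were lowest at -1.39 and -1.35 (adjusted p = 0.000992 and 0.0072). At 24 h, 5 of these 11 were lower, with Slc6a13 at -1.33 and the growth factor gene Igf2 at -1.05 (adjusted p = 0.00564 and 0.0036), whereas 0 of 11 ependyma genes were called, 0 having an unadjusted p under 0.05, and their median was 0.30. No gene of these lists was at 0 in all 3 libraries of a group. The part of these tissues in the plexus values was not tested.

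Lists of vessel cells held few calls at 7 days. None of the 10 brain endothelium genes was called by limma, 2 having an unadjusted p under 0.05, with a median of 0.14 and sums of 386348 to 491808 in stroke against 334780 to 464884 in sham. Of the 6 smooth muscle genes none was called by limma, 0 having an unadjusted p under 0.05, with a median of -0.31. Of the 6 genes listed for fenestrated endothelium, the kind that lines plexus capillaries, none was called either, 1 having an unadjusted p under 0.05, with a median of 0.24. Kdr and Emcn on this list held 5999 to 13252 and 4487 to 10281 normalized counts over the 24 libraries. At such levels the list cannot separate plexus capillaries from the other vessels of these preparations. Of 7 pericyte genes, 1 was lower, the secreted protein gene Vtn at -1.003 (adjusted p = 0.00162). At 24 h, 3 endothelium genes were lower, with the efflux pump gene Abcb1a and the lipid transporter gene Mfsd2a at -0.87 and -0.85 (adjusted p = 0.000441 and 0.00491), and 3 pericyte genes, with Rgs5 and Vtn at -0.74 and -0.67 (adjusted p = 0.00239 and 0.0176). Emcn, on the fenestrated endothelium list, was higher at 24 h, at 0.85 (adjusted p = 0.00182), and 0 of 6 smooth muscle genes were called, 1 having an unadjusted p under 0.05.

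Genes of parenchymal and blood cells were compared last. Of 10 neuron genes, 9 were lower at 7 days (median -2.89, Syt1 at -3.80 and Gad2 at -3.52) and 7 at 24 h (median -1.36, Nefm at -2.41 and Nefl at -1.995). Of 8 astrocyte genes 3 were lower at 7 days, with the glutamate transporter genes Slc1a2 and Slc1a3 at -1.74 and -1.69, and 4 at 24 h, with Agt at -2.06 and Slc1a2 at -1.14. Of 10 oligodendrocyte genes 3 were lower at each time, with Opalin and Mog at -1.88 and -1.30 at 7 days, and Mog at -1.01 at 24 h. Neutrophil and monocyte genes went the other way, with 7 of 8 higher at 24 h, led by Plac8 at 4.05 and Cxcr2 at 3.68, and 2 at 7 days, Plac8 at 1.97 and Csf3r at 1.66. Of 6 erythroid genes 0 were called by limma at 24 h, 0 having an unadjusted p under 0.05, and 0 at 7 days, 0 having an unadjusted p under 0.05, with medians of 1.43 and -1.64. The part of these cells in the values of the 9 genes was not tested.

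**Figure D4:**
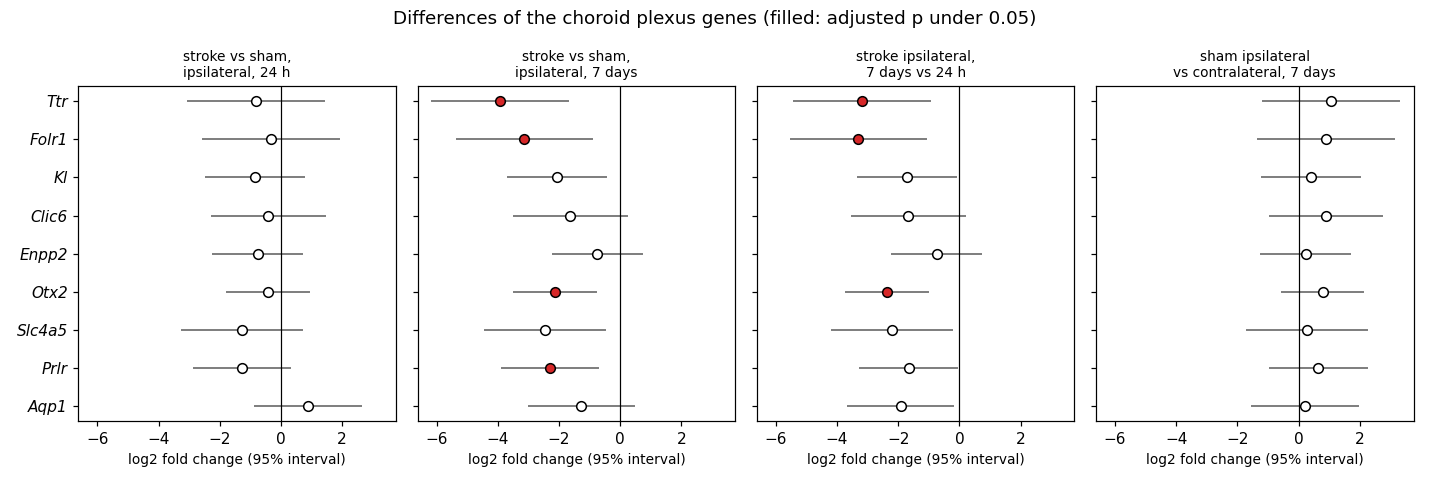
Log2 fold changes of the 9 choroid plexus genes in 4 comparisons, with 95% intervals from limma. Filled points passed the test. In stroke against sham ipsilateral libraries at 7 days all 9 values are negative, from -3.93 (Ttr) to -0.75 (Enpp2), and at 24 h every interval spans 0.

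Within the stroke ipsilateral side, the time points were compared next. This shares the 7 day libraries with the comparison above, so that both rest on the same low values. At 7 days, 3 of the 9 genes were lower than at 24 h by limma, beside 12.2% of all genes called and 8.44% called lower. Folr1 fell by 3.31 (SE 1.06, adjusted p = 0.0334), Ttr fell by 3.19 (SE 1.06, adjusted p = 0.0407) and Otx2 fell by 2.38 (SE 0.64, adjusted p = 0.0136). All 9 values were negative with a median of -1.93, against -0.039 over all genes. In 6 of the 9 the libraries did not overlap, as in 19.9% of all genes in this direction, and the 3 that overlapped were Enpp2, Slc4a5 and Aqp1. Leaving out a library of either group left 1 or 2 genes called, with 1 gene without stroke ipsilateral 24 h replicate 1, 7 days replicate 1 or 7 days replicate 3, and 2 without any of the other 3. Scaling the libraries to a common median shifted all values of this comparison by 0.11 and changed no call among the 9.

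Whether the effect of stroke on the ipsilateral side differed between the times was tested with an interaction term. None of the 9 genes was called, while 8.12% of all genes were, and none had an unadjusted p under 0.05. Ttr gave -3.12 (SE 1.51, adjusted p = 0.195), Folr1 -2.81 and Otx2 -1.71, and the median of the 9 was -1.22. The difference between stroke and sham ipsilateral libraries at 7 days is therefore not shown to differ from that at 24 h.

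The hemispheres of the stroke mice were compared with each other next. At 24 h, none of the 9 genes was called between ipsilateral and contralateral libraries, against 13.7% of all genes, and 1 had an unadjusted p under 0.05, Aqp1 at 1.81 (adjusted p = 0.119), which was 0.65 without its high library. Without stroke ipsilateral replicate 3, Aqp1 was called at 2.61 (adjusted p = 0.0327 by limma, with a range of 0.0327 to 0.595 over the libraries left out). At 7 days none was called by limma, against 13% of all genes, and 1 had an unadjusted p under 0.05, namely Ttr at -2.31 (adjusted p = 0.166). All 9 values were negative with a median of -1.23, and the libraries did not overlap in Otx2 alone, at -1.23 (adjusted p = 0.230), a separation that 14.6% of all genes showed in this direction. In 2 of the 3 same-numbered pairs of stroke libraries Ttr was lower ipsilaterally, with 556 against 17909 and 2056 against 9270, but in replicate 2 it was slightly higher, with 2804 against 2343.

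In sham mice the hemispheres did not differ past the threshold. All 9 genes had positive values in ipsilateral against contralateral libraries at 24 h, with a median of 0.94, and again at 7 days, with a median of 0.64, but none was called by limma and none had an unadjusted p under 0.05. Of all genes, 0% were called at 24 h and 0% at 7 days. At 24 h Otx2 had the highest value, 1.19, and Aqp1 the lowest, 0.55. The median at 24 h was 0.14 without ipsilateral replicate 2 and 1.92 without ipsilateral replicate 1, and at 7 days it was 0.074 without contralateral replicate 2 and 1.39 without contralateral replicate 1. With 1 library left out, the lowest values of Kl and Clic6 at 24 h were -0.047 and -0.042, and at 7 days the lowest values of Ttr, Enpp2, Slc4a5, Prlr and Aqp1 were -0.02, -0.14, -0.27, -0.019 and -0.11. The mean log2 level of the 9 genes was higher ipsilaterally in 4 of 6 sham pairs of libraries with the same number and in 2 of 6 stroke pairs. The sham ipsilateral groups, which held the highest mean log2 Ttr of the 8, are also the reference of the comparisons with stroke on that side.

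Libraries of both hemispheres that carry the same number were compared over the 12 pairs. That a shared number marks shared mice is not stated, and libraries had been removed. The mean log2 level of the 9 genes correlated between the sides with Pearson's r 0.467 and Spearman's rho 0.462 (n = 12 pairs), with 0.651 and 0.771 in the 6 sham pairs and 0.485 and 0.429 in the 6 stroke pairs. These are descriptions of a score over chosen genes, and no p is attached. Differences between the sides ran from -2.58 in stroke 7 days replicate 1 to 1.94 in sham 24 h replicate 3. The pair at -2.58 was the one with the lowest Ttr value of all, and in the 7 days sham pairs replicate 1 was the only one lower ipsilaterally.

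**Figure D5:**
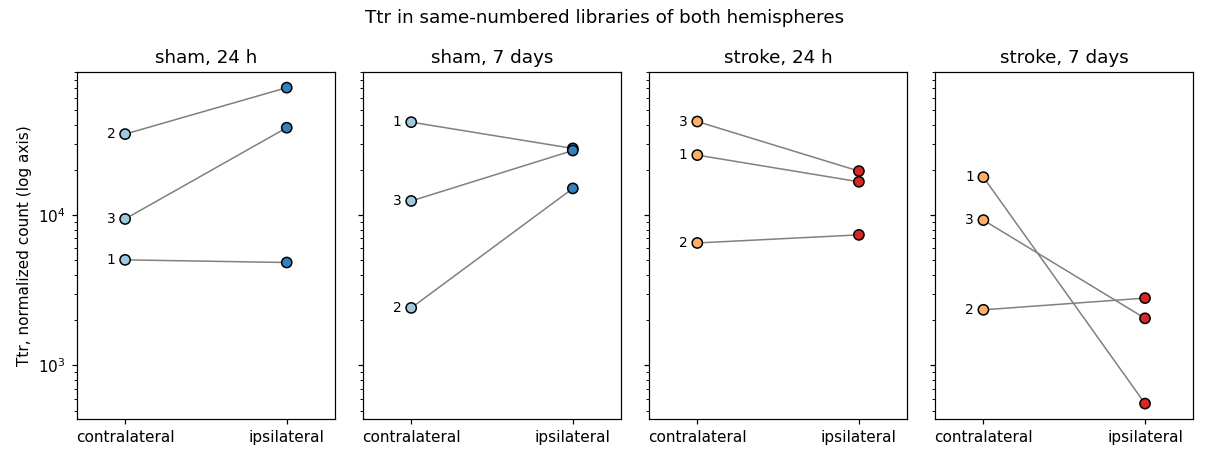
Ttr normalized counts (log axis) in same-numbered contralateral and ipsilateral libraries, joined by lines, by surgery and time, with the replicate number on the left. In stroke mice at 7 days, 2 of 3 lines fall and replicate 2 rises from 2343 to 2804, and in sham mice 4 of 6 lines rise.

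The remaining comparisons between control groups showed no called plexus gene, and none of the 9 had an unadjusted p under 0.05 in any of them. Stroke against sham contralateral libraries gave a median of 0.60 at 24 h, where 0% of all genes were called, and of -0.40 at 7 days, where 0.0313% were. From 24 h to 7 days the median of the 9 was -1.16 in stroke contralateral libraries (0% of all genes called), -0.51 in sham ipsilateral (0.476%) and -0.18 in sham contralateral libraries (0.332%). Ttr gave -1.38, -0.07 and -0.13 in these last 3, each with an SE of 1.06. These medians and counts hung on single libraries. The sham ipsilateral median was 0.27 without 24 h replicate 2. The sham contralateral median was 0.49 without 24 h replicate 2 and 0.21 without 7 days replicate 2. In the contralateral comparison of stroke with sham at 7 days, it was 0.24 without sham replicate 1 and 0.13 without stroke replicate 2.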

How the data were processed

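Microvessel RNA of 24 libraries was measured by RNA sequencing. Per the labels, which list tools without their order, reads were aligned with STAR 2.5.2b to mm10 and counted with featureCounts 1.5.1. The authors then divided the counts by size factors of DESeq2 1.6.2, and the table deposited holds these normalized counts rounded to whole numbers, a score for this purpose rather than raw counts, so no count model was run. This rounding coarsens low values such as those of Slc4a5. For STAR and DESeq2, the authors' methods give other versions. No columns were left unused.

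Genes with a mean above 5 were transformed to log2(normalized count + 1), which understates changes of low genes, and all 8 groups of 3 libraries were fitted together with limma 3.58.1 (trended variance) in R 4.3.3 and the package data.table (version 1.17.8). Genes were called at a Benjamini-Hochberg adjusted p under 0.05 over the 15982 genes tested and a change above 1.5-fold. This was done for 13 contrasts. Relations to Ttr used 100000 permutations in scipy 1.17.1 with numpy 2.4.6, pandas 2.3.3 and Python 3.11.15, and plots used matplotlib 3.10.9. Exon lengths came from GENCODE vM21 (GRCm38), gene coordinates from the Ensembl annotation deposited with the counts, and promoters from RefSeq (GRCm38.p6). The fit was tested on simulated data.

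The 9 genes and the 13 lists of other genes were chosen with earlier results of these data known. Named were all 9 genes, the 10 genes most like them, and in each list the 2 highest and 2 lowest log2 fold changes among called genes of stroke against sham ipsilateral libraries at each time. Mia and Slc47a1, of the lists, were not found by these symbols, and some genes that the rule names are not reported here. Same-numbered sham libraries deviated together between the hemispheres (r over genes 0.145 to 0.410 at 24 h, 0.325 to 0.467 at 7 days). This met the limit for pairs, as a hint from the data. In the stroke hemispheres r was 0.066 to 0.360 at 24 h and 0.059 to 0.309 at 7 days. The check asked every pair to pass the limit, and in stroke the lowest pair of each time did not, while the highest did. Every reported value comes from the unpaired fit, and the block was an alternative. Alternatives were other pseudocounts, filters and scaling, library weights, a replicate block, fits restricted to the libraries being compared, no fold limit, and each library left out in turn.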

Additional observations from a re-analysis of the deposited data

How the results depend on the processing

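Of 1827 values of the 9 genes under alternatives, 1785 kept their direction, where called, and their side of the threshold, 32 lost the call, 10 gained one and 0 reversed a call. For stroke against sham ipsilateral libraries at 7 days, 4 genes were called, and 2 with the replicate block, where Folr1 and Prlr missed the threshold (adjusted p = 0.0553 and 0.0530 by limma). Leaving out 1 library gave 0 to 3, and other settings gave 3 to 6. Leaving out sham ipsilateral 24 h replicate 2, the library with the highest Ttr, chosen after seeing the data, gave 5. For stroke ipsilateral 7 days against 24 h, 3 genes were called, and 1 to 2 with 1 library left out. Other settings gave 2 to 6, with 6 when only the compared groups were in the fit. For the stroke hemispheres, the replicate block gave 1 at 7 days (Ttr, adjusted p = 0.0420 by limma, with a range of 0.0420 to 0.641 over the settings), and leaving out 1 library gave 0 to 1 at 24 h (Aqp1). The block changed no other count of the 9 genes. By the check used, the numbers did not pair the stroke libraries, because some same-numbered pairs of hemispheres stayed below its limit. The highest r of such pairs was 0.360 at 24 h and 0.309 at 7 days. In the other 9 contrasts 0 of the 9 were called under every alternative run. The cause of these changes was not tested, beyond the fewer samples left in a fit.

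Counts over all genes moved by more than 1.5 times in several contrasts. With library weights, calls went from 76 to 433 in sham ipsilateral and from 53 to 200 in sham contralateral libraries between the times, from 0 to 34 in stroke contralateral libraries between the times, from 0 to 1 in contralateral stroke against sham at 24 h, and from 1297 to 1971 in the interaction. With only the compared groups they went from 2080 to 1187 in the stroke hemispheres at 7 days, from 76 to 28 and from 53 to 28 in the sham time contrasts, and from 5 to 0 in contralateral stroke against sham at 7 days, where the replicate block gave 18. The block gave 1 in place of 0 in the sham hemispheres at 24 h. Without the fold limit, calls went from 2919 to 4885 in stroke against sham ipsilateral at 24 h, from 2182 to 3904 in the stroke hemispheres at 24 h and from 1943 to 3082 in stroke ipsilateral 7 days against 24 h. Leaving out stroke ipsilateral 24 h replicate 1 gave 1136 in the last of these and 801 in the interaction, and leaving out sham ipsilateral 24 h replicate 1 gave 782 there. Between the times, leaving out 1 library gave 0 to 89 calls in stroke contralateral (89 without 7 days replicate 3), 19 to 53 in sham ipsilateral (19 without 7 days replicate 2) and 4 to 76 in sham contralateral libraries (4 without 7 days replicate 2). In contralateral stroke against sham at 7 days it gave 1 to 12. Median centring shifted the median by 0.11 in stroke ipsilateral 7 days against 24 h and by 0.10 in the interaction. With SEs of 0.64 to 1.06 for the 9 genes, changes under several fold could not be resolved with 3 libraries a group.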

Other observations

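Over the 30 other plexus epithelium genes, r with the mean z score of the 9 genes ran from -0.55 to 0.961. Those with a negative r included Trpv4, a cation channel gene, at -0.55, Ace at -0.35 and the retinol transporter gene Stra6 at -0.24. They were named after their values were seen. Of the 15973 other genes tested, 18 had r above 0.9 and 52 had r above 0.8.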
